A study of Mus musculus with 24 samples.

Results

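The Fos and Jun genes of the AP-1 transcription factor family were followed in polyA RNA of the Cdr1as knockout mouse brain. The 6 genes Fos, Fosb, Fosl2, Jun, Junb and Jund were chosen by symbol, with earlier results of these data known. They were matched to the Ensembl IDs of the count tables. On GRCm38, Fos (ENSMUSG00000021250) lies at chr12:85473890-85477273, Fosb (ENSMUSG00000003545) at chr7:19302696-19310051 and Fosl2 (ENSMUSG00000029135) at chr5:32135801-32157842. Jun (ENSMUSG00000052684) lies at chr4:95049034-95052222, Junb (ENSMUSG00000052837) at chr8:84974484-84978718 and Jund (ENSMUSG00000071076) at chr8:70698949-70700616. They are 6 of 37621 features, and all 6 were among the 17266 genes that passed the filter on low counts over the 24 libraries. The libraries came from dissected cerebellum, cortex, hippocampus and olfactory bulb of C57BL/6 mice, with 3 libraries labelled Cdr1as knockout (KO) and 3 labelled wild type (WT) in each region. Both genotypes share the strain, and the labels name no other allele, agent, age or sex. Cdr1as is a circular RNA with many binding sites for the microRNA miR-7, and the knockout removes its locus. The labels do not say whether the 3 libraries of a group are separate animals, so p-values measure the spread between these libraries.

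AP-1 is a dimer of basic leucine zipper proteins: a Fos protein pairs with a Jun protein, while Jun proteins can also pair with each other, and the dimer binds DNA at AP-1 sites. In neurons Fos, Fosb and Junb are immediate-early genes, transcribed within minutes of synaptic activity and silent again soon after, whereas Jund is expressed steadily. Fosl2, also called Fra-2, is a Fos gene that lacks the strong activation domain of Fos and Fosb, and Jun is the founding member of the Jun genes and regulates its own promoter.

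The promoters are shown as background, because the Fos promoter is a classical model of activity-dependent transcription through cyclic AMP response elements (CRE). RefSeq holds 1 promoter window of 300 bases for each of the 6 genes on GRCm38.p6 (250 bases before to 50 after the start). The 150 bases just before the RefSeq start are printed for Fos, Fosb, Junb and Jun, whose start lies within 30 bases of a GENCODE transcript start. The RefSeq starts of Fosl2 and Jund lie 299 and 1210 bases from the nearest one. Capitals mark the matches found, 5′ to 3′ on the strand of the gene.
Fos (chr12:85473740-85473889, plus strand): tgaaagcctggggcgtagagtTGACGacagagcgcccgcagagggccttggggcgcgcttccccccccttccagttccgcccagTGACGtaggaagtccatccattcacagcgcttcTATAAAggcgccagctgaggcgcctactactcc
Fosb (chr7:19310046-19310195, minus strand): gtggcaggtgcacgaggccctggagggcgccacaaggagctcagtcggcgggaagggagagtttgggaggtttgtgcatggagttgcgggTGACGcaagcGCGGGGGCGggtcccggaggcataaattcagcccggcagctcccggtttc
Junb (chr8:84978749-84978898, minus strand): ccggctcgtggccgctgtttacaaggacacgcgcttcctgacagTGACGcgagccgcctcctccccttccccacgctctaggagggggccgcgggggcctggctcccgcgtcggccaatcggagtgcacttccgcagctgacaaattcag
Jun (chr4:95052223-95052372, minus strand): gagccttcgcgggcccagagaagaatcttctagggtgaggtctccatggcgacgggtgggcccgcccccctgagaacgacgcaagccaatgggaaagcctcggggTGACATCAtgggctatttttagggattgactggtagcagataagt
The CRE core TGACG began at positions -129 and -66 of Fos, -60 of Fosb and -106 of Junb, counted from the start as position 1. It was present in 20.8% of 32851 RefSeq promoters of the same length. Fos also had the TATA box TATAAA at -33, and Junb had it at 1, the RefSeq start itself, which lies 30 bases before the GENCODE start (13.6% of promoters). The EGR site GCGNGGGCG was found at -50 in Fosb and at -79 in Fosl2 (5.55%). Jun had TGACATCA, the variant AP-1 site known from the Jun promoter, at -45 (3.62%). All searches covered both strands, TGACGTNA contains the core TGACG, and the Jund window held none of the motifs. TGACGTNA (2.93% of promoters), the AP-1 site TGANTCA (7.81%) and the CArG box (1.63%), the binding motif of the serum response factor, had no exact match in the 6 windows. Sites more than 250 bases before the start were not searched, so these motifs may lie further upstream. A match is a description of the letters and no record of binding, and its link to the knockout effect was not tested.

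Libraries held 21068566 to 40472007 gene counts, and in the olfactory bulb the KO libraries were deeper (33770965 to 40472007) than the WT libraries (21068566 to 27168999). The feature for the deleted locus, Cdr1asG, had 0.115 to 1.95 CPM (a gene's counts scaled to a common library size) in KO libraries and 2.23 to 29.0 CPM in WT libraries. The summed markers of each region were highest in the libraries labelled with that region; those of the cerebellum, for example, reached 4955 to 5387 CPM in KO cerebellum and 5008 to 5474 CPM in WT cerebellum, and at most 281 CPM elsewhere. Choroid plexus markers were uneven: their sum was 377 to 1314 CPM in KO cerebellum and 32.5 to 2390 CPM in WT cerebellum, and 35.3 to 47.4 CPM in KO hippocampus and 39.1 to 3287 CPM in WT hippocampus. All 8 of these markers were detected in every group, and 5 libraries exceeded 1000 CPM.

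Fos was higher in KO tissue in all 4 regions, by 3.06-fold in the bulb to 4.93-fold in the cerebellum on mean CPM. KO cerebellum had 49.4, 116 and 100.3 CPM, against 10.8, 16.5 and 26.6 CPM in WT cerebellum. In the cortex the 3 KO libraries had 72.2, 90.2 and 133 CPM and the 3 WT libraries 22.2, 21.9 and 35.1 CPM. Every KO library thus lay above every WT library in both regions. KO hippocampus had 20.9, 59.3 and 52.1 CPM, against 8.90, 6.70 and 17.5 CPM in WT hippocampus, and KO bulb had 80.9, 171 and 133 CPM, against 16.8, 45.6 and 63.6 CPM in WT bulb. Here too the groups did not overlap, though the lowest KO hippocampus library, number 1, came close to the highest WT one, number 3. In bulk tissue more expressing cells and more RNA per cell cannot be told apart. The edgeR log2 fold change of Fos, KO minus WT, was 2.29 (SE 0.46) in the cerebellum, 1.89 (SE 0.29) in the cortex, 2.0 (SE 0.54) in the hippocampus and 1.59 (SE 0.52) in the bulb.

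Fosb, which encodes the full-length FosB protein and a truncated splice form, was higher in 3 regions without overlap. KO cerebellum had 2.89, 5.48 and 6.08 CPM, against 2.07, 0.659 and 0.895 CPM in WT cerebellum. KO cortex had 45.1, 49.2 and 68.0 CPM, against 33.2, 19.5 and 19.7 CPM in WT cortex. The widest gap was in the olfactory bulb, with 83.7, 141 and 150.2 CPM in KO and 19.5, 22.5 and 34.8 CPM in WT libraries. In the hippocampus the groups overlapped, at 18.3, 34.7 and 31.5 CPM in KO and 19.7, 17.1 and 12.9 CPM in WT libraries. The log2 fold change was 2.0 (SE 0.48) in the cerebellum, 1.16 (SE 0.26) in the cortex, 0.76 (SE 0.27) in the hippocampus and 2.27 (SE 0.31) in the bulb.

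Fosl2 was apart in the same 3 regions as Fosb. KO bulb had 270.5, 339.6 and 392 CPM, against 89.9, 69.1 and 127 CPM in WT bulb, so that the lowest KO library held more than the highest WT one by a wide margin. KO cerebellum had 23.0, 45.5 and 52.3 CPM, against 16.1, 13.3 and 14.5 CPM in WT cerebellum, and KO cortex 112, 105 and 151 CPM, against 72.6, 51.4 and 52.3 CPM in WT cortex. In the hippocampus they overlapped, at 75.0, 113 and 98.2 CPM in KO and 82.3, 84.6 and 74.2 CPM in WT libraries. The log2 fold change was 1.46 (SE 0.30) in the cerebellum, 1.06 (SE 0.18) in the cortex, 0.24 (SE 0.15) in the hippocampus and 1.79 (SE 0.26) in the bulb.

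Among the Jun genes, Junb was apart in the cortex, hippocampus and bulb, by 2.14- to 2.56-fold on mean CPM. KO cortex had 78.8, 88.7 and 118 CPM, against 23.9, 36.4 and 51.2 CPM in WT cortex. KO hippocampus had 58.6, 88.7 and 96.5 CPM, against 29.2, 39.8 and 44.8 CPM in WT hippocampus, and KO bulb 50.2, 85.5 and 68.1 CPM, against 11.2, 29.6 and 40.0 CPM in WT bulb. No KO library of these regions fell within the WT range. In the cerebellum Junb was low in both genotypes, at 7.41, 9.69 and 6.05 CPM in KO and 6.57, 7.93 and 6.98 CPM in WT libraries, and the groups overlapped. The log2 fold change was 0.098 (SE 0.17) in the cerebellum, 1.34 (SE 0.30) in the cortex, 1.10 (SE 0.23) in the hippocampus and 1.32 (SE 0.46) in the bulb.

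Jun, which stress kinases activate at the protein level, differed little. KO cortex had 77.3, 62.8 and 72.8 CPM, against 57.5, 45.7 and 49.1 CPM in WT cortex, the one region where its groups did not overlap (log2 0.48, SE 0.11). Its log2 fold change was 0.0066 (SE 0.098) in the cerebellum, 0.22 (SE 0.12) in the hippocampus and 0.10 (SE 0.078) in the bulb. The values ranged from 61.9 to 72.8 CPM in KO and 57.8 to 71.6 CPM in WT cerebellum, from 106 to 141 CPM in KO and 99.8 to 116 CPM in WT hippocampus, and from 73.6 to 84.1 CPM in KO and 67.4 to 76.3 CPM in WT bulb.

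Jund, the steady member, lay lower in KO cerebellum, at 74.6, 64.3 and 53.5 CPM, than in WT cerebellum, at 75.2, 83.1 and 91.8 CPM. The gap between the highest KO and the lowest WT library there was small. KO bulb had 75.0, 78.6 and 73.0 CPM, against 54.5, 70.9 and 72.0 CPM in WT bulb, again with little between the groups. Jund overlapped in the cortex and the hippocampus. Its log2 fold change was -0.38 (SE 0.13) in the cerebellum, 0.12 (SE 0.10) in the cortex, 0.14 (SE 0.12) in the hippocampus and 0.18 (SE 0.11) in the bulb.

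**Figure D1:**
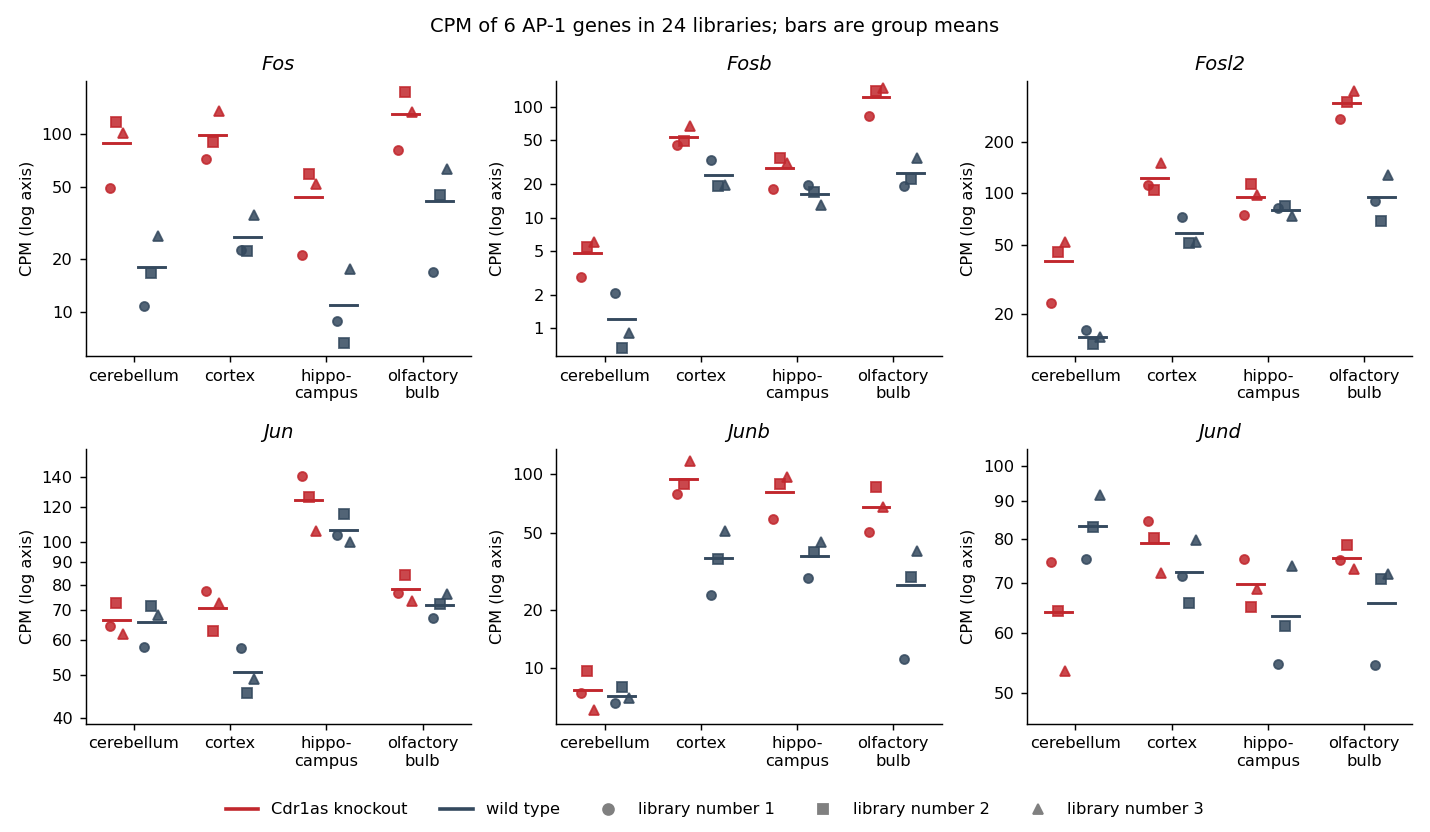
CPM of each gene on a log axis in the 24 libraries, by region, with KO (red) left of WT (dark) and marker shapes for library numbers 1, 2 and 3; bars are group means of 3 libraries. Fos does not overlap in any of the 4 regions, and Junb is apart in all but the cerebellum.

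Counted over the members, groups were apart with KO higher for 3 of 6 genes in the cerebellum (6.25% of all genes tested), 5 of 6 in the cortex (5.03%), 2 of 6 in the hippocampus (5.5%) and 5 of 6 in the bulb (5.83%). With Jund, the cerebellum had 4 of 6 apart in either direction, against 11.2% of all genes. The members were chosen with earlier results of these data known, so these shares are a description and no test of them. The median log2 fold change of the 6 genes was 0.78, 1.11, 0.50 and 1.45 in the cerebellum, cortex, hippocampus and bulb, and that of all genes between -0.0053 and -0.0016. Over pairs of KO and WT libraries with the same region and number, KO was higher in 12 of 12 for Fos and 11 of 12 for Fosb, Fosl2 and Junb. It was higher in 10 of 12 for Jun and 7 of 12 for Jund. These counts include the cortex, whose numbers did not pair, and have no share over all genes beside them. In a region where the groups were apart every pair followed from that, so the pair counts largely repeat the counts above.

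Within a single region none of the 6 genes passed the edgeR quasi-likelihood test at an adjusted p under 0.05. That test called 0% of genes in the cerebellum, hippocampus and bulb and 0.0379% in the cortex (6 of 15834), with smallest adjusted p-values of 0.412, 0.542, 0.259 and 0.0262. The adjusted p of Fos was 0.627 in the cerebellum, 0.192 in the cortex, 0.954 in the hippocampus and 0.865 in the bulb. Unadjusted p-values under 0.05 were found for 4 members in the cerebellum (862 of all genes), 5 in the cortex (665), 3 in the hippocampus (804) and 4 in the bulb (859). The smallest belonged to Fosb in the bulb (9th of 16131 genes by edgeR, adjusted p = 0.413). DESeq2 called 3 members in the cerebellum (0.318% of all genes), 5 in the cortex (0.644%), 1 in the hippocampus (0.238%) and 2 in the bulb (0.409%), and limma-voom called 0 in each region, with the same shares of all genes as edgeR.

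The edgeR fit with the number as a block called 1 member each in the cerebellum, hippocampus and bulb. There libraries of equal number were taken as pairs from their correlation in these same data. In the hippocampus and bulb its range overlapped that of unequal numbers. Fos passed in the cerebellum (log2 2.30, adjusted p = 0.0222, with 0.0191% of genes called). Junb passed in the hippocampus (log2 1.09, adjusted p = 0.000766, 0.0963% called), and Fosb in the bulb (log2 2.27, adjusted p = 0.00217, 0.353% called).

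Averaged over the 4 regions, Fos, Fosb, Fosl2 and Junb rose in KO tissue. Fos had a mean log2 fold change of 1.95 (SE 0.26, edgeR adjusted p = 0.000319), Fosb of 1.56 (SE 0.19, adjusted p = 9.88e-05), Fosl2 of 1.145 (SE 0.13, adjusted p = 5.7e-05) and Junb of 0.97 (SE 0.18, adjusted p = 0.00509). With libraries of 1 genotype and number treated as correlated, limma-voom gave Junb an adjusted p = 0.0534. Jun, at 0.21 (SE 0.057, edgeR adjusted p = 0.0538), and Jund, at 0.023 (SE 0.065, adjusted p = 0.948), did not pass. With the library number within each region as a block, Jun passed (0.21, edgeR adjusted p = 0.00504). That block also took as pairs the libraries of the cortex, whose numbers did not pair, and of the hippocampus and bulb, where pairing is uncertain. The 4 calls of 6 stand beside 2.68% of all 17266 genes called in either direction and 1.81% called higher. Because the members were chosen with earlier results of these data known, this is no test of the 6 genes as a set. The members' median was 1.06, against -0.0012 for all genes. The test treats the 24 libraries as independent. When each genotype's libraries of 1 number were reduced to their average across regions, which leaves 3 values against 3, none of the 6 passed in limma (adjusted p = 0.455 for Fos, 0.383 for Fosb and Fosl2 and 0.52 for Junb), and Junb alone passed when these averages were paired by number (adjusted p = 0.0146). Without the libraries numbered 2, Fosl2 alone kept its call, and Fos (log2 1.68, adjusted p = 0.0948), Fosb (1.36, adjusted p = 0.0649) and Junb (0.91, adjusted p = 0.208) lost theirs by edgeR.

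Choroid plexus markers were lower in the KO mean: all 8 were lower, 1 of them fell, and their median log2 fold change over the regions was -1.50. The median was -0.87 in the cerebellum, -0.17 in the cortex, -4.08 in the hippocampus and -0.36 in the bulb. Their sum was uneven within groups, at 32.5 to 2390 CPM in WT and 377 to 1314 CPM in KO cerebellum. WT hippocampus spanned 39.1 to 3287 CPM. Markers of the olfactory bulb were also lower, 7 of 7 with 1 that fell (median -0.52), with medians of 0.097 in the cerebellum, -1.18 in the cortex, 0.13 in the hippocampus and -0.025 in the bulb itself. Of the cerebellum markers 6 of 7 were lower (median -0.31) and 0 passed. Of the markers of glia, endothelium, meninges, striatum and thalamus, 2 of 8 endothelial and 1 of 6 oligodendrocyte precursor markers fell. The part of these cells in the AP-1 differences was not tested. Leaving out the 5 libraries above 1000 CPM of choroid plexus markers left 1 WT library in the cerebellum and 1 in the hippocampus. The mean log2 fold change was then 1.93 for Fos, 1.62 for Fosb, 1.10 for Fosl2 and 0.92 for Junb. With so few WT libraries, that fit cannot show the part of choroid plexus. Junb missed the threshold without the cortex (0.85, edgeR adjusted p = 0.0656) and without the hippocampus (0.93, adjusted p = 0.0601). Counted over all alternatives other than leaving out 1 library, Junb kept its call in 8 and lost it in 6. 

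An exact permutation test of each gene alone, two-sided, exchanged genotype labels within each region (160000 arrangements). It takes no account of the likeness of libraries of 1 genotype and number across regions, whose estimated correlation was 0.216. The exact p was 1.25e-05 for Fos, the smallest these arrangements allow, 2.5e-05 for Fosb, 3.75e-05 for Fosl2, 0.000112 for Junb, 0.00614 for Jun and 0.765 for Jund. The mean differences in log2 CPM were 1.98, 1.56, 1.13, 1.01, 0.21 and 0.025 in that order. On the averages over regions, where 20 arrangements are possible, 5 genes reached an exact p = 0.1, the smallest that 3 against 3 allow, and Jund had p = 0.8.

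**Figure D2:**
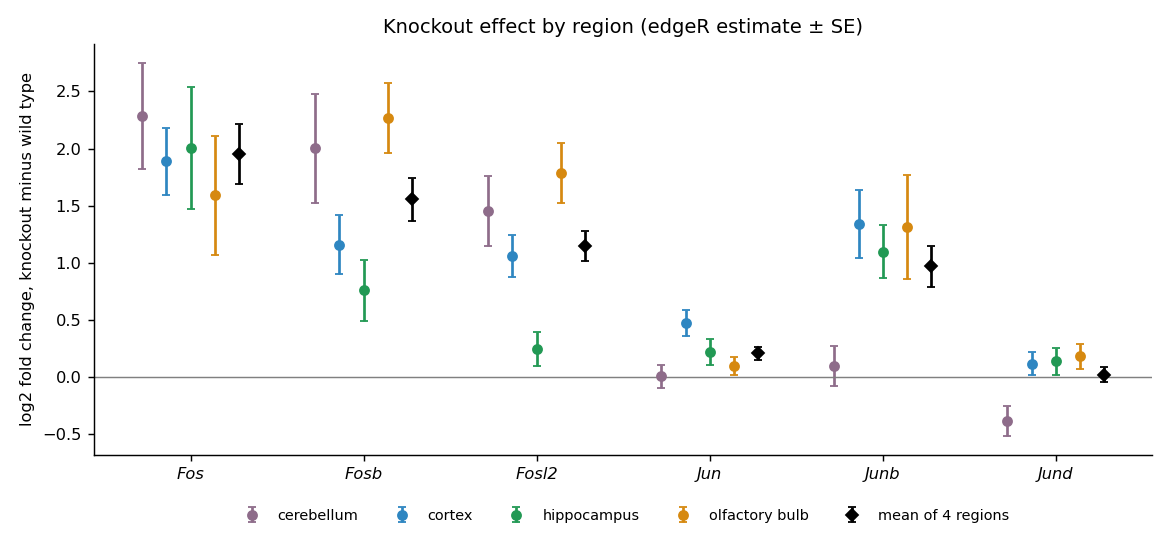
Log2 fold change of KO over WT (edgeR estimate, bars are SE) for each gene in each region and for the mean of 4 regions (black diamonds). Fos lies between 1.59 and 2.29 in all 4 regions, whereas Fosl2 spans 0.24 to 1.79 and Jund spans -0.38 to 0.18.

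Fos had the lowest F of the 6 in the edgeR test of a difference between regions (F = 0.313, adjusted p of 1), with estimates that ranged from 1.59 to 2.29 on the log2 scale and SEs of 0.29 to 0.54. Fosl2 had the highest (F = 6.73, edgeR adjusted p = 0.885), with a fold of 3.499 in the bulb and 1.19 in the hippocampus on mean CPM. Fosb had F = 3.91, Jund F = 4.31, Jun F = 3.14 and Junb F = 2.57 by edgeR, each with an adjusted p of 1. None of the 6 passed over all genes, 4 had an unadjusted p under 0.05, as did 439 of 17266 genes, and the adjusted test called 0.0232% of all genes.

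To compare the 6 mRNAs with each other, levels were divided by the merged exon length of each gene in the GENCODE annotation, from 1668 bases for Jund to 9680 for Fosl2. Fos was at 37.7 ± 14.8 CPM per kb in KO and 7.64 ± 3.41 in WT cerebellum, and at 54.6 ± 19.3 in KO and 17.9 ± 10.03 in WT bulb (SD, n = 3). Jund was the most abundant of the 6 per kb in every WT group, from 37.9 ± 5.78 CPM per kb in the hippocampus to 49.98 ± 4.95 in the cerebellum. In KO bulb the mean of Fos, at 54.6 ± 19.3 CPM per kb, was above that of Jund, at 45.3 ± 1.71. The gap lay within the SD of Fos, and this order was not tested. Fosb was the least abundant per kb of merged exon in every group.

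The share of the 3 Fos genes in the summed level per kb of the 6 genes was 39.7 ± 11.98% in KO and 11.1 ± 2.62% in WT cerebellum. It was 35.9 ± 5.22% in KO and 21.9 ± 1.77% in WT cortex, 21.8 ± 6.39% in KO and 15.2 ± 1.44% in WT hippocampus, and 51.8 ± 5.50% in KO and 29.3 ± 5.23% in WT bulb (SD, n = 3). The shares were not tested, and in the hippocampus the lowest KO library (14.6%) lay below the highest WT library (16.5%). Fosl2 was at 34.5 ± 6.30 CPM per kb in KO bulb and 12.7 ± 2.55 in KO cortex, the next region. Fosb was likewise at 20.03 ± 5.78 in KO bulb and 8.66 ± 1.96 in KO cortex. In WT tissue Fosl2 in the bulb (9.86 ± 3.05) was near the hippocampus (8.30 ± 0.566). The longest transcript of Fosb is 3782 bases long, against 6243 bases of merged exon, so its level per kb depends on the length taken. Jun and Jund have 1 GENCODE transcript each, so both lengths are equal for them in that annotation. Per kb of the longest transcript, Fosb in KO bulb (33.1 CPM per kb) stood above Jun (24.5) and was no longer the lowest. By that length the mean of Junb was above that of Jund in KO cortex (52.5 against 47.4) and KO hippocampus (44.9 against 41.8). In KO cerebellum Fos was above Jund (42.0 against 38.4).

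**Figure D3:**
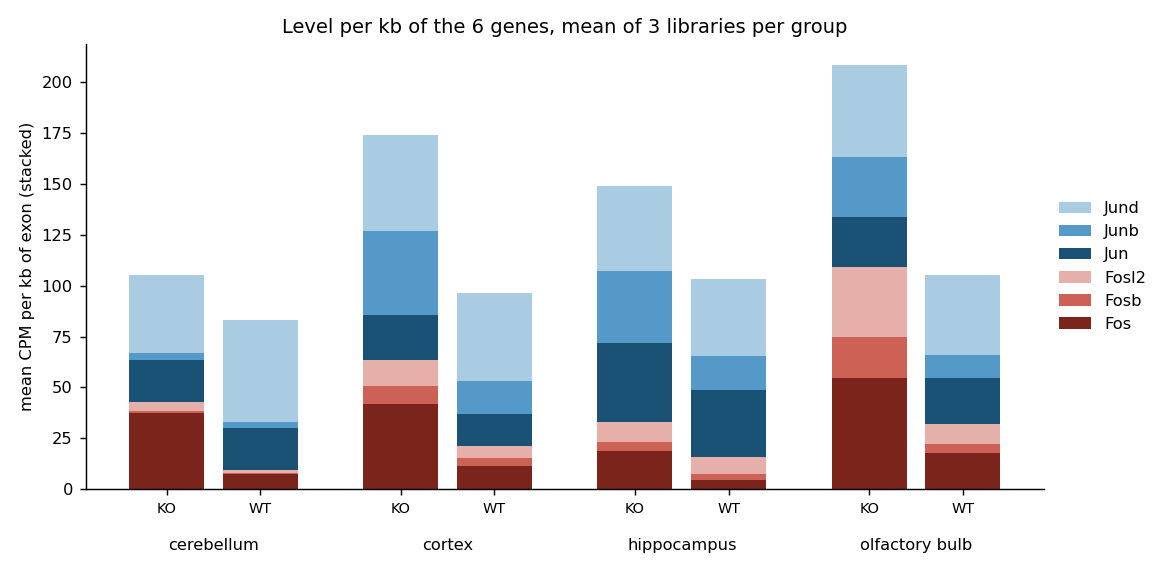
Mean CPM per kb of merged exon, stacked over the 6 genes, for KO (left) and WT (right) of each region, each bar a mean of 3 libraries. The share of the Fos genes (red shades), averaged over libraries, is 39.7% in KO and 11.1% in WT cerebellum, and 51.8% in KO and 29.3% in WT bulb.

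Levels differed between regions in both genotypes, as they did for many genes. For the cerebellum against the cortex, 3 members in KO (57.9% of all genes) and 4 in WT tissue (57.1%) passed the edgeR test; against the hippocampus 4 in KO (55.7%) and 5 in WT (52.7%), and against the bulb 3 in KO (51.3%) and 4 in WT (50.4%). For the cortex against the hippocampus it was 1 member in KO (20%) and 1 in WT (17.1%), and against the bulb 2 in KO (47.2%) and 2 in WT (48.9%). For the hippocampus against the bulb it was 4 in KO and 2 in WT, with 45.1% of genes called in either genotype. With so many genes differing between regions, these counts say nothing particular about the 6 genes, and the order of each is given as a description with its test.

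Fosb, Fosl2 and Junb were lowest in the cerebellum. In KO tissue Fosb averaged 125 ± 36.1 CPM in the bulb, 54.1 ± 12.2 in the cortex, 28.2 ± 8.73 in the hippocampus and 4.82 ± 1.69 in the cerebellum (SD, n = 3). In WT tissue it averaged 25.6 ± 8.12 CPM in the bulb, 24.1 ± 7.83 in the cortex, 16.5 ± 3.42 in the hippocampus and 1.21 ± 0.756 in the cerebellum. In KO tissue bulb and cortex differed (log2 bulb minus cortex 1.21, SE 0.35, edgeR adjusted p = 0.00771), as did hippocampus and cerebellum (2.56, SE 0.38, adjusted p = 1.18e-05), while cortex and hippocampus did not pass. In WT tissue the hippocampus exceeded the cerebellum (3.81, SE 0.43, edgeR adjusted p = 4.35e-07), and the other neighbours did not differ beyond their spread.

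Fosl2 stood in KO tissue at 334 ± 61.0 CPM in the bulb, 123 ± 24.7 in the cortex, 95.4 ± 19.2 in the hippocampus and 40.3 ± 15.3 in the cerebellum. Bulb and cortex differed (log2 1.44, edgeR adjusted p = 0.000142), as did hippocampus and cerebellum (1.25, adjusted p = 0.000453). In WT tissue the order was bulb (95.5 ± 29.6 CPM), hippocampus (80.3 ± 5.48), cortex (58.8 ± 11.98) and cerebellum (14.6 ± 1.38), and of neighbours only cortex and cerebellum differed (2.0, adjusted p = 3.58e-06, edgeR). Junb in KO tissue averaged 95.1 ± 20.2 CPM in the cortex, 81.3 ± 19.995 in the hippocampus, 68.0 ± 17.7 in the bulb and 7.72 ± 1.84 in the cerebellum. In WT tissue Junb averaged 37.9 ± 7.94 CPM in the hippocampus, 37.2 ± 13.7 in the cortex, 26.9 ± 14.6 in the bulb and 7.16 ± 0.699 in the cerebellum (SD, n = 3). The only step past the threshold was that from bulb to cerebellum, in KO (log2 3.14, adjusted p = 1.08e-06) and in WT tissue (1.91, adjusted p = 0.000274, edgeR).

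Fos kept 1 order in both genotypes: bulb, cortex, cerebellum, hippocampus. It averaged 128 ± 45.4, 98.6 ± 31.5, 88.6 ± 34.9 and 44.1 ± 20.4 CPM in KO tissue, and 42.0 ± 23.6, 26.4 ± 7.55, 17.97 ± 8.02 and 11.04 ± 5.72 CPM in WT tissue (SD, n = 3). No neighbours passed the edgeR test, while the ends of the order did, with hippocampus minus bulb at -1.54 in KO (SE 0.51, edgeR adjusted p = 0.0202) and -1.94 in WT (SE 0.54, adjusted p = 0.00648). Without KO hippocampus number 1 or KO bulb number 2 the KO difference was -1.21 (adjusted p = 0.0934) or -1.28 (adjusted p = 0.0789). WT cerebellum minus bulb, at -1.22 (edgeR adjusted p = 0.0585), passed with DESeq2 (-1.24, adjusted p = 0.0289) and with library totals (-1.34, adjusted p = 0.0441).

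Jun was highest in the hippocampus, at 124 ± 17.5 CPM in KO and 106 ± 8.32 CPM in WT tissue. The hippocampus exceeded the next region, the bulb, in KO (log2 0.67, SE 0.11, edgeR adjusted p = 6.24e-05) and in WT tissue (0.56, SE 0.11, adjusted p = 0.000415). In the other 3 regions Jun averaged 66.5 to 78.2 CPM in KO and 50.8 to 72.0 CPM in WT tissue. Jund had means of 64.1 to 79.0 CPM in KO and 63.2 to 83.4 CPM in WT tissue, and no neighbours passed the edgeR test in either genotype. KO cerebellum minus cortex, at -0.30 (edgeR adjusted p = 0.0528), passed with DESeq2 (adjusted p = 0.0342), limma-voom (0.0448) and in 6 runs without 1 library (0.0139 to 0.0375). WT cerebellum nevertheless exceeded WT hippocampus (log2 0.40, edgeR adjusted p = 0.0135) and WT bulb (0.34, adjusted p = 0.0339); the first call ended without WT cerebellum number 3 (adjusted p = 0.0698) or WT hippocampus number 1 (0.111), and the second without WT cerebellum number 2 (0.0643) or 3 (0.141), WT cortex number 1 (0.052) or WT bulb number 1 (0.186) and with library totals (0.206).

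For Fos and Junb the deviations of libraries from their group means followed the library number. Library number 1 lay below its group mean for Fos in 8 of 8 groups (median deviation in log2 CPM -0.62, from -1.12 to -0.19), and number 3 lay above it in 8 of 8 (median 0.47, from 0.12 to 0.80). For Junb number 1 lay below in 8 of 8 groups (median -0.38), number 2 above in 7 and number 3 above in 6. For Fosb the genotypes parted: number 1 was the highest library in 3 WT groups (cerebellum, cortex and hippocampus) and the lowest in every KO group. Fosl2 was split in a like way, with number 1 below the group mean in every KO group and above it in WT cerebellum, cortex and hippocampus. Jund was split the other way, with number 1 below the group mean in every WT group and above it in KO cerebellum, cortex and hippocampus. Jun, Jund and Fosl2 had number 1 above the group mean in 3 of 8 groups each. The labels do not say what a number stands for, and its part in these differences was not tested.

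**Figure D4:**
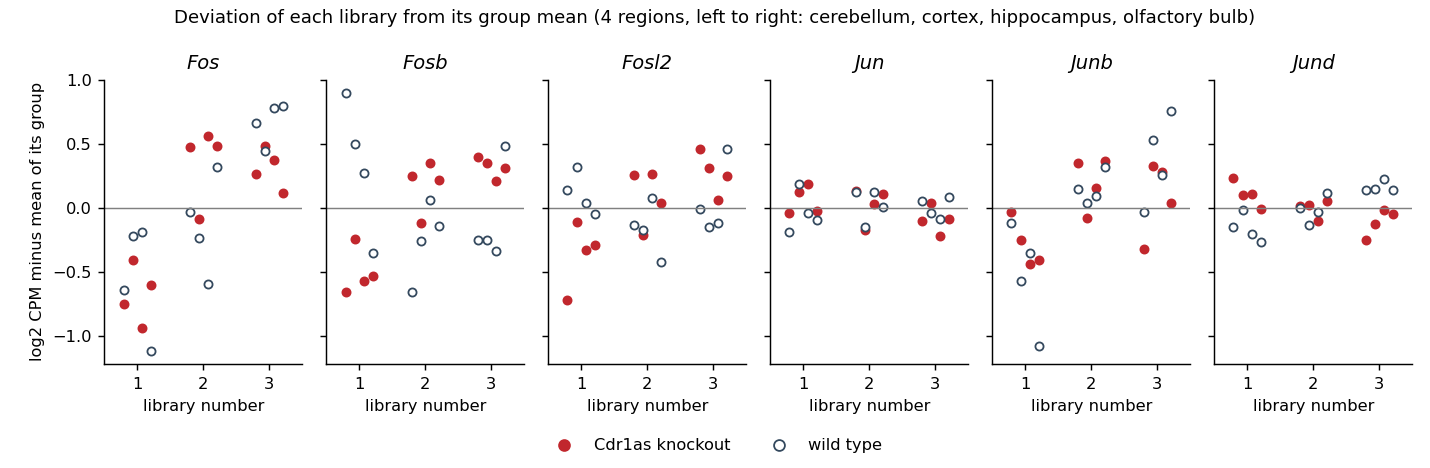
Log2 CPM of each library minus the mean of its group, by library number, for KO (filled red) and WT (open dark); the 4 points of a genotype are the 4 regions. For Fos all 8 points of number 1 lie below 0 and all 8 of number 3 lie above it.

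After the group means were removed, so that genotype and region no longer counted, Fosb and Fosl2 followed each other across the 24 libraries (Pearson r = 0.807), as did Fos and Junb (r = 0.755). Fos was less like Fosb (r = 0.327) and Fosl2 (r = 0.446), and Junb less like Fosb (r = 0.190) and Fosl2 (r = 0.142). Jun had r = 0.018 with Fos. Jund had r = -0.435 with Fosb, r = -0.477 with Fosl2 and r = 0.476 with Junb. These values describe 24 libraries that share depth, preparation and possibly animals, and carry no test.

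Genes most like each member were sought among 13433 genes after removing only the region means, so that genotype still counted. Genes with provisional symbols, such as Gm numbers, Rik and clone names, were left out of this search. Fos was followed most closely by Nr4a1 (r = 0.950), Tmem252 (r = 0.936) and Per1 (r = 0.931), and with the genotype means also removed these had r = 0.907, 0.803 and 0.861. The 2 closest to Fosb were Fosl2 (r = 0.954) and Nr4a3 (r = 0.932, and r = 0.634 within groups), and the 2 closest to Fosl2 were Nr4a3 (r = 0.969, and r = 0.819 within groups) and Fosb. Junb was closest to Egr1 (r = 0.954, and r = 0.864 within groups) and Arc (r = 0.946, and r = 0.879). Jun was closest to Vps37b (r = 0.864) and Aacs (r = 0.828), and Jund to C1qtnf4 (r = 0.894) and Avpi1 (r = 0.879).

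Other genes around AP-1 were read in the same comparison, the mean of 4 regions. Of 10 further basic leucine zipper partners tested, 2 rose and 0 fell (median 0.068), beside 1.81% of all genes called higher. Atf3, a stress-induced factor that can pair with Jun proteins, rose by 1.32 (SE 0.14, edgeR adjusted p = 2.3e-05) and averaged 23.5 ± 4.92 CPM in KO and 3.48 ± 1.32 CPM in WT bulb (SD, n = 3). In the other regions Atf3 averaged at most 2.32 ± 0.329 CPM in KO and 1.04 ± 0.242 CPM in WT tissue. Maff, a small Maf protein, rose by 0.69 (SE 0.16, adjusted p = 0.0179, edgeR).

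Of 14 transcription factors and coactivators that act on AP-1 genes, 1 rose and 0 fell (median 0.088, with the same 1.81% of all genes called higher). Srf, the serum response factor that drives Fos transcription, was higher by 0.33 (SE 0.053, edgeR adjusted p = 0.001), at 48.0 ± 5.40 CPM in KO and 33.2 ± 4.04 CPM in WT bulb. Among 16 kinases upstream of AP-1, 1 rose and 0 fell (median 0.0057, against the same 1.81%): Mapk14, the stress kinase p38α, by 0.15 (SE 0.031, edgeR adjusted p = 0.00896). Of 10 genes for protein turnover and mRNA decay, 0 passed (median -0.0013). The smallest p-values there belonged to Fbxw7, a ubiquitin ligase subunit that targets Jun, at -0.11 (edgeR adjusted p = 0.105) and Zfp36l2, which promotes decay of AU-rich mRNAs, at -0.20 (adjusted p = 0.554).

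Of 20 tested genes reported as targets of AP-1, 0 passed by edgeR, and 9 were higher and 11 lower in KO tissue (median -0.025, against -0.0012 for all genes). Bdnf, the neurotrophin, was at 0.19 (SE 0.090, edgeR adjusted p = 0.357) and Plaur, the urokinase receptor, at 0.36 (SE 0.22, adjusted p = 0.517). Among 10 other transcription factors that neuronal activity induces, 8 rose and 0 fell, with a median of 1.11 (background 1.81% called higher). The 8 were Nr4a3 (1.52), Nr4a2 (1.09), Klf4 (0.93), Egr4 (1.13), Npas4 (1.55), Nr4a1 (1.34), Egr1 (0.85) and Ier2 (0.66), the last with an edgeR adjusted p of 0.0416. Egr2 (1.23, adjusted p = 0.215) and Egr3 (0.53, adjusted p = 0.195) did not pass. This list was compiled with earlier results of these data known.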

How the data were processed

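PolyA RNA was prepared with TRIzol and the TruSeq Stranded mRNA LT kit, per the labels' protocols. The deposited values are raw counts of reads per Ensembl gene, 1 table per library. The submitters' processing notes name bcl2fastq 2.17.1.14, STAR 2.5.1b, HTSeq 0.6.1p1 and build mm9. The strand setting of the counting is not given in the sources used here, so reads of overlapping genes cannot be told apart. Summary lines stayed out of library sizes and tests: reads in no feature were 8.22 to 16.8%, ambiguous 0.576 to 0.764% and not unique 10.3 to 13.5%. Libraries detected 19220 to 21159 features.

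Counts were tested with edgeR 4.0.16 (R 4.3.3; filterByExpr, TMM factors, robust quasi-likelihood F test, Benjamini-Hochberg adjustment over all genes tested, threshold 0.05), within each region and in 1 fit over 24 libraries for the mean of 4 regions and for region differences. Alternatives were DESeq2 1.42.0, limma-voom (limma 3.58.1), library totals, no count filter, each library left out, a replicate block, averages over regions, correlated libraries, libraries numbered 2 left out and each region left out. Log2 CPM used a prior count of 2. Scripts were tested on simulated data. Levels per kb used GENCODE exon lengths, with genes matched by ID only, and promoters came from RefSeq on GRCm38.p6; no mm9 coordinate was used.

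Equal library numbers were checked for pairing by the correlation of deviations from group means between KO and WT. For equal numbers r lay between 0.323 and 0.691 (cerebellum), 0.322 and 0.585 (hippocampus) or 0.340 and 0.811 (bulb). These were taken as pairs from the data, and the cortex (-0.088 to 0.682) was not. Unequal numbers had r of -0.525 to 0.199 (cerebellum), -0.561 to 0.364 (hippocampus), -0.673 to 0.477 (bulb) and -0.682 to 0.522 (cortex). In the hippocampus and bulb the ranges of equal and unequal numbers overlapped, so the pairing there is uncertain. No 2 replicates agreed within sampling noise (chi-square per degree of freedom 6.61 to 56.1 over 24 pairs). Named were all 6 members, the calls of each other AP-1 list (at most 8, or the 2 smallest p-values where there were none), and the genes most like each member. The last were sought at a mean of at least 1 CPM and without provisional symbols. Members and lists were chosen with earlier results of these data known.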

Additional observations from a re-analysis of the deposited data

Results flagged for a closer look

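Jund lay lower in KO than in WT cerebellum and higher in KO than in WT bulb, with no overlap of the groups but small gaps, and passed the edgeR test in neither region (adjusted p = 0.79 in the cerebellum and 0.987 in the bulb). Its fold of KO over WT on mean CPM was 0.769 in the cerebellum (64.1 ± 10.6 CPM in KO, 83.4 ± 8.26 CPM in WT) and 1.149 in the bulb (75.6 ± 2.86 CPM in KO, 65.8 ± 9.81 CPM in WT; SD, n = 3). The difference between these 2 regions was not tested on its own. Over all 4 regions the edgeR test of a difference gave F = 4.31, with an adjusted p of 1.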

How the results depend on the processing

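No result changed direction past a threshold. With 1 library left out, 2258 of the members' results kept their direction and side of the threshold, 17 gained and 11 lost a call and 18 moved; under the other alternatives 566 kept both, 35 gained and 21 lost a call and 8 moved. Without any 1 library, Fos, Fosb, Fosl2 and Junb stayed called in the mean of 4 regions (4 to 5 members called; highest edgeR adjusted p 0.00117, 0.000389, 0.000208 and 0.0115), while Jun was called in 4 of 24 runs (adjusted p 0.0192 to 0.107).

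In that mean edgeR called 462 genes. DESeq2 called 790 (462 shared), the replicate block 1256 (458 shared, 5 members with Jun at adjusted p = 0.00504), leaving out the libraries numbered 2 gave 200 (147 shared, 1 member), correlated libraries 108 (Junb 1.01, adjusted p = 0.0534), the averages over regions 0 genes and 0 members, and the averages with replicate block 164 (127 shared, 1 member, Junb, adjusted p = 0.0146; Fos 0.0909). Without the choroid-plexus-rich libraries, an alternative chosen after seeing the data, it was 99 (94 shared), without the cerebellum 233 (Jun 0.28, adjusted p = 0.0467), without the cortex 217, without the hippocampus 192 and without the bulb 170. In the permutation test on averages 0 members could pass.

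Within regions, members and genes called were 3 and 50 in the cerebellum, 5 and 102 in the cortex, 1 and 37 in the hippocampus and 2 and 66 in the bulb by DESeq2. With the replicate block they were 1 and 3, 3 and 110, 1 and 15, and 1 and 57; the cortex, whose numbers did not pair, then held Fos (1.89, adjusted p = 1.61e-06), Jun (0.48, adjusted p = 0.0195) and Junb (1.38, adjusted p = 8.19e-05). Without the count filter 1, 28, 1 and 2 genes were called, and with library totals 0 in the cortex. Leaving out 1 library gave 0 to 4 genes in the cortex and 0 to 42 in the hippocampus.

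For the difference between regions 4 genes were called, against 40 by DESeq2, 11 with the replicate block, 0 without the choroid-plexus-rich libraries and 0 to 21 with 1 library left out. For cortex against hippocampus, KO members called were 2 by DESeq2 and limma-voom, 1 to 2 with 1 library left out and 3 with the number within genotype as replicate block (added after seeing the data), which called 2 in WT. That block also called Fos in WT cerebellum minus bulb (adjusted p = 0.00178), in KO cerebellum minus hippocampus (0.00324) and in cortex minus hippocampus (0.00235 in KO, 0.00368 in WT), and Jund in KO cerebellum minus cortex (0.0054) and KO cerebellum minus bulb (0.0226). For cortex against bulb in WT it was 1 without the count filter and 1 to 2 with 1 library left out (Fosl2 lost its call without WT cortex number 2 or 3, or WT bulb number 3). The cause of these changes was not tested.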
